A study of Saccharomyces cerevisiae with 15 samples.

Results

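The genes described here are 40 yeast genes that make, salvage and take up the purine and pyrimidine building blocks of RNA and DNA. They were chosen by name, as the probes whose symbol in the array's probe-to-gene table is a listed member. The list was drawn up with earlier results of these data known. Each had 1 probe, so the 40 genes stand for 40 of the 6249 genes or unnamed probes of the array. They were set in 6 roles: 5 subunits of the enzyme that makes phosphoribosyl pyrophosphate (PRPP), 10 genes of de novo purine synthesis up to AMP, 4 of the GTP branch, 8 of pyrimidine synthesis, 12 of salvage and uptake, and the regulator BAS1.

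The study measured RNA of Saccharomyces cerevisiae (W303 background, mating type a) on 15 2-colour arrays, with 1 array per condition and so no replicates. Wild-type cells (strain ACY044) in mid-log growth were exposed for 20 minutes to 200 nM rapamycin, an inhibitor of the growth-controlling TORC1 kinase, to nitrogen starvation, to amino acid starvation, to 0.1% glucose, to 0.375 M KCl, to heat shock at 42 °C or to 0.4 mM hydrogen peroxide. Wild-type cells also received 3 combined treatments: nitrogen and glucose starvation together, glucose starvation with 200 nM rapamycin, and nitrogen starvation with 0.375 M KCl. Cells of strain ACY509, which lacks SNF1, the gene of the yeast AMP-activated protein kinase, were given nitrogen starvation, 0.375 M KCl, 0.1% glucose or 0.02% glucose. Each of these 14 arrays set treated against mid-log cells of the same strain, and 1 further array set mid-log snf1 cells against mid-log wild-type cells. Every value below is a log2 ratio, positive where the treated (or snf1) cells had more RNA, and a change counts as 2-fold at 1 or more on either side of 0. A bulk ratio cannot tell apart fewer cells that use a gene and less RNA per cell.

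Purines are built on PRPP in a chain of steps that ends at IMP, from which 1 branch leads to AMP and the other, through IMP dehydrogenase, to GTP. Pyrimidines are made as a ring first and joined to PRPP afterwards, giving UMP and then UTP and CTP. Salvage enzymes recover bases and nucleosides from the medium or from RNA breakdown. In yeast the transcription factor Bas1, with its partner Pho2, activates the genes of IMP and AMP synthesis when adenine is scarce, and growing cells spend most of their nucleotides on ribosomal RNA.

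Of the 40 genes 37 had a value on all 15 arrays, and PRS4, URA4 and FUI1 lacked a value on 1 array each. A deposited value of exactly 0 was taken as no value on the 6 arrays that held more than 500 of them. Array medians over the 4653 genes measured on every array ran from −0.22 to 0.02. Of 12 genes picked as known responders to a treatment, not always to it alone, 10 were highest on the array labelled with it among the 7 wild-type single treatments. The exceptions were DAL5, at 8.33 in nitrogen starvation and 8.79 with rapamycin, and TSA2, which ranked 5 of 7 in peroxide (2.58). SNF1 itself lacked a mid-log value and could not check the deletion, with ratios of 0.05 to 2.57 on the snf1 treatment arrays and −0.26 to 0.64 on those of wild-type cells. The peroxide array had treated cells in Cy3, and the others had treated (or snf1) cells in Cy5. No condition had a dye swap, so on any 1 array a ratio cannot be told apart from dye bias. Directions shared only by the arrays with treated cells in Cy5 have the same limit. The median of the members was −0.725 on the peroxide array, of the opposite dye order, and −0.02 on the mid-log strain array. Dye bias was not tested.

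**Figure D1:**
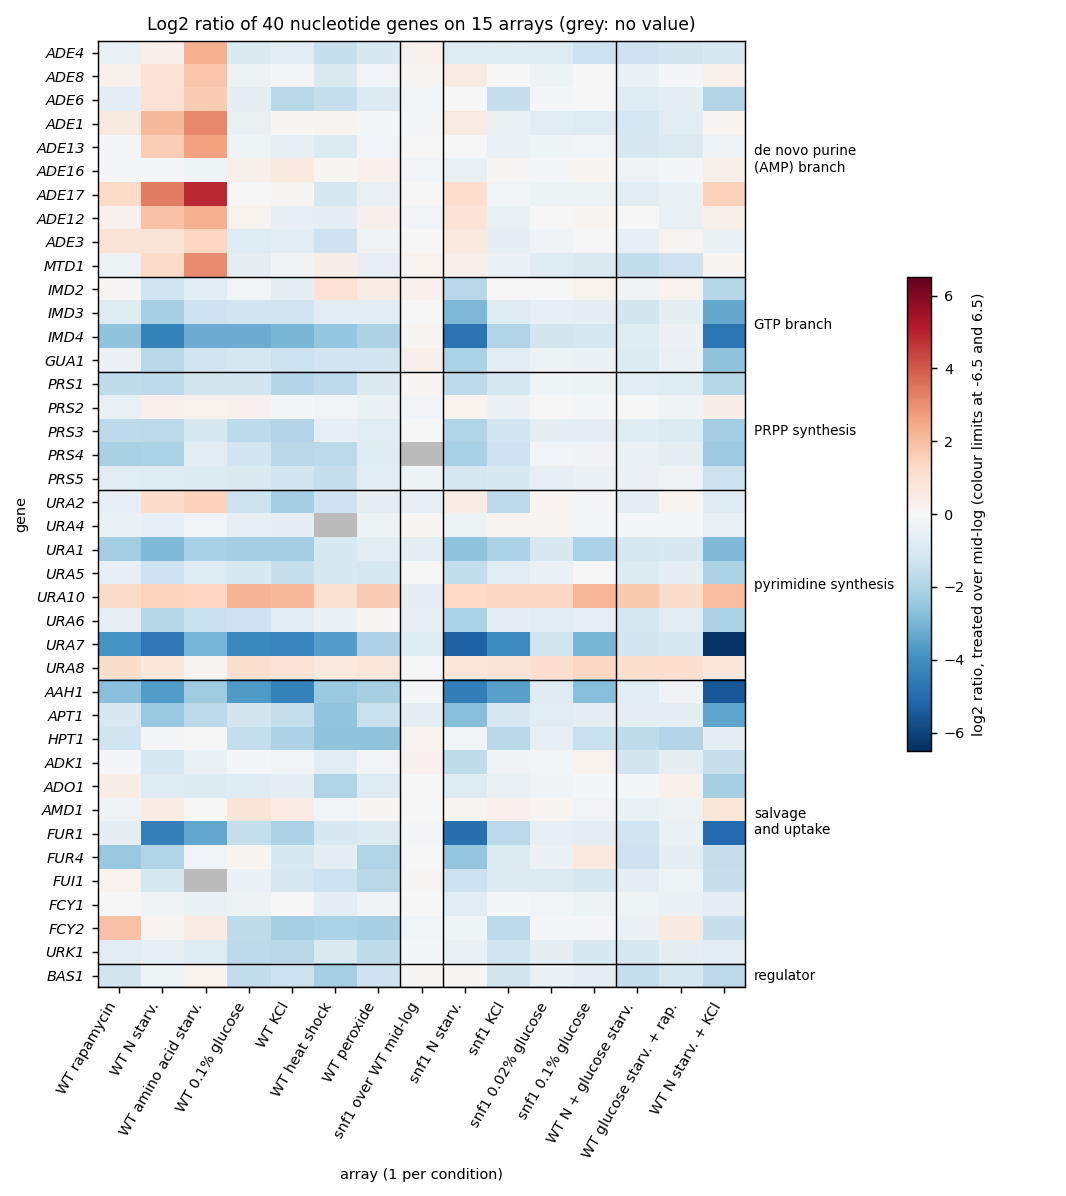
Heat map of the log2 ratio of each of the 40 genes (rows, grouped by role) on the 15 arrays (columns), red where treated cells had more RNA and blue where they had less, with grey for no value. The mid-log column compares snf1 with wild-type cells. ADE17 in amino acid starvation (4.88) and URA7 in nitrogen starvation with KCl (−6.38) are the extremes.

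The median of the members was below 0 on all 14 treatment arrays (−1.51 to −0.30), where medians of all genes lay between −0.15 and 0.03. Counts past 2-fold were less even. In amino acid starvation as many members were higher as lower. The share lower was not above that of all genes in snf1 cells on 0.02% glucose or in glucose starvation with rapamycin. At least 2-fold lower were 11 of 40 under rapamycin (11.5% of all genes), 17 without nitrogen (14.6%), 11 of 39 without amino acids (14.7%), 17 of 40 on 0.1% glucose (19.1%), 21 with KCl (15.7%), 20 of 39 after heat shock (18.4%) and 12 of 40 after peroxide (12.3%). At least 2-fold higher were 4, 7, 11, 2, 1, 0 and 1 in that order, where 11.1%, 14.7%, 13.4%, 14.7%, 13.2%, 16% and 9.97% of all genes were. In snf1 cells 18 were lower without nitrogen (18.9%), 15 with KCl (13.4%), 3 on 0.02% glucose (7.52%) and 7 on 0.1% glucose (13.3%), and 2, 1, 2 and 2 were higher (14.4%, 12.3%, 7.54% and 17.2%). Among combined treatments 14 were lower without nitrogen and glucose (18.1%), 5 without glucose under rapamycin (15.3%) and 22 without nitrogen with KCl (23%), and 2 were higher on each (16.3%, 13.2% and 18.4%).

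The first comparison asked which genes shared a direction across the 7 single treatments of wild-type cells. Of the 37 tested genes 18 fell and 2 rose (limma mean against 0, Benjamini-Hochberg adjusted p below 0.05 over 4653 genes), where 28.2% of all genes fell and 22.9% rose. The falls were in the GTP branch (3 of 4), in PRPP synthesis (3 of 4 tested), in pyrimidine synthesis (4 of 7 tested), in salvage and uptake (7 of 11 tested) and in BAS1. None of the 10 de novo purine genes passed in either direction. The median coefficient was −0.78 over the 37 genes and −0.06 over all genes. The spread in this test is that between treatments, and the sources used here do not say whether arrays shared a mid-log culture. All 20 calls held under each of the 12 other settings tried.

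The largest falls were those of URA7, AAH1 and IMD4. URA7 (probe A_06_P1169) encodes the main CTP synthase, the last step to CTP. Its ratio was −3.83 under rapamycin, −4.64 without nitrogen, −3.03 without amino acids, −4.19 on 0.1% glucose, −4.28 with KCl, −3.57 after heat shock and −1.99 after peroxide, a mean of −3.65 (SE 0.289, n = 7 treatments, limma adjusted p = 5.69e-05). Peroxide gave the smallest fall, and every other treatment was past −3. AAH1, an adenine deaminase that turns adenine into hypoxanthine, was at −2.73, −3.65, −2.31, −3.66, −4.38, −2.39 and −2.14 in the same order, a mean of −3.04 (SE 0.278, limma adjusted p = 7.77e-05). IMD4, an IMP dehydrogenase, was at −2.59, −4.37, −3.23, −3.25, −2.98, −2.49 and −2.05, a mean of −2.99 (SE 0.247, limma adjusted p = 6.89e-05). With APT1 these were the 4 of 38 genes measured on all 7 arrays that were at least 2-fold lower on every one, against 2.86% of all genes.

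**Figure D2:**
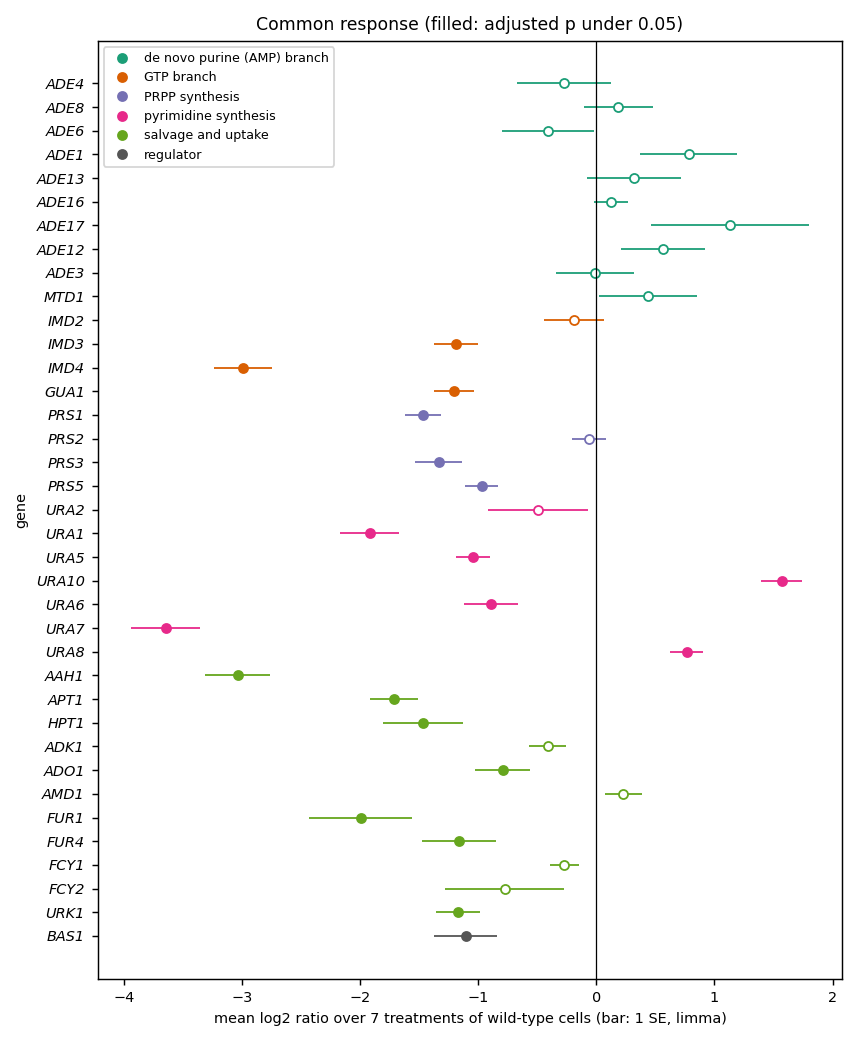
Mean log2 ratio over the 7 single treatments of wild-type cells (horizontal axis) for the 37 genes tested, with bars of 1 SE from limma, coloured by role and filled where the adjusted p was below 0.05. Filled points to the left include URA7 (−3.65), AAH1 (−3.04) and IMD4 (−2.99), the only filled points to the right are URA10 (1.57) and URA8 (0.76), and all 10 de novo purine genes are open.

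PRPP feeds purine, pyrimidine, histidine and tryptophan synthesis, and yeast makes it with a synthetase built from the PRS1 to PRS5 products. PRS1 fell by 1.47 (SE 0.151, limma adjusted p = 1.07e-04), with PRS3 at −1.33 and PRS5 at −0.97 (adjusted p = 6.02e-04 and 4.79e-04), each below 0 on 7 of 7 arrays. PRS2 was the exception among the tested subunits at −0.06 (SE 0.146, adjusted p = 0.748), with ratios between −0.49 and 0.30 on the 7 arrays. PRS4 lacked a mid-log value and so was outside the test. On the 7 wild-type arrays it ran from −2.09 with rapamycin to −0.76 in amino acid starvation, and among genes with a value on those 7 arrays it passed at −1.50 (adjusted p = 3.40e-04).

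De novo purine synthesis was the branch whose direction depended on the treatment. In amino acid starvation 9 of its 10 genes were at least 2-fold higher, where 13.4% of all genes were, and the branch median was 2.32. In nitrogen starvation 5 of 10 were at least 2-fold higher, against 14.7% of all genes, and the median was 1.09. On the other 5 wild-type single treatments the branch medians lay between −0.93 at heat shock and 0.09 with rapamycin. ADE17 (probe A_06_P5550), a bifunctional enzyme of the last 2 steps to IMP, was highest, at 4.88 in amino acid starvation, 3.35 in nitrogen starvation and 1.22 with rapamycin. It was at −0.04 on 0.1% glucose, 0.09 with KCl, −1.14 after heat shock and −0.46 after peroxide. The 7 values therefore spanned more than 6 log2 units, and their mean of 1.13 (SE 0.668, adjusted p = 0.184) did not pass.

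Genes of the earlier steps had their highest ratios on the same array. ADE4, the amidophosphoribosyltransferase of the committed first step, was at 2.31 in amino acid starvation and 0.31 in nitrogen starvation, and between −1.52 and −0.41 on the other 5 wild-type arrays. ADE8, the glycinamide ribotide transformylase, was at 1.80 and 0.87 in the 2 starvations, and ADE6, the next enzyme, at 1.65 and 0.93. For ADE6 the 3 stresses were the low end, at −1.82 with KCl, −1.49 after heat shock and −0.89 after peroxide. ADE1, which joins aspartate to the growing ring, was at 3.11 in amino acid and 2.13 in nitrogen starvation, and between −0.49 and 0.57 elsewhere among the 7.

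Genes of the AMP arm and the folate supply had their highest ratios in amino acid starvation. ADE13, adenylosuccinate lyase, which acts both before IMP and on the way to AMP, was at 2.62 and 1.58 in amino acid and nitrogen starvation. ADE12, adenylosuccinate synthetase, the first step from IMP to AMP, was at 2.33 and 1.88. MTD1, a cytoplasmic dehydrogenase of one-carbon folates, was at 3.09 and 1.25, and ADE3, which makes the formyl folate that purine synthesis uses, at 1.42 and 0.82, with 0.84 under rapamycin. ADE16 stood apart, with ratios of −0.30 in amino acid and −0.09 in nitrogen starvation and no value beyond 0.65 on any of the 7 arrays. It encodes the isozyme of ADE17.

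**Figure D3:**
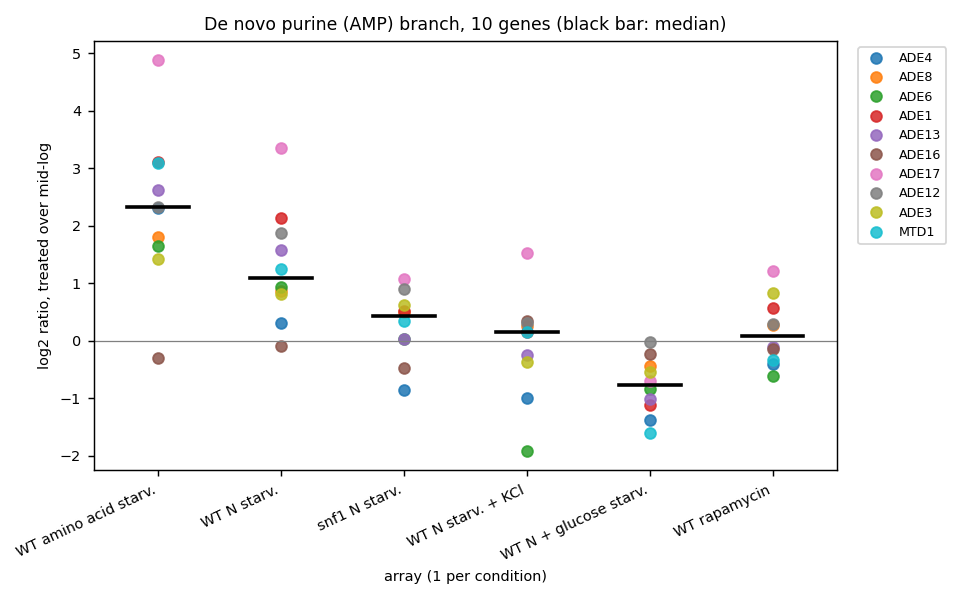
Log2 ratio (vertical axis) of the 10 de novo purine genes on 6 arrays with nitrogen or amino acid starvation or rapamycin, 1 point per gene, with a black bar at the median. The medians go from 2.32 in amino acid starvation of wild-type cells to 1.09 in nitrogen starvation, 0.43 in nitrogen starvation of snf1 cells, 0.15 with KCl added and −0.77 with glucose removed as well.

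In the GTP branch the 3 IMP dehydrogenase genes were not alike. IMD4 had the lowest ratios, IMD3 fell by 1.19 (SE 0.187, limma adjusted p = 7.86e-04), and IMD2 was at −0.19 (SE 0.253, adjusted p = 0.561). IMD2, the gene that in yeast is induced when GTP runs short, was at 0.10 under rapamycin, −1.30 without nitrogen, −0.72 without amino acids, −0.18 on 0.1% glucose, −0.63 with KCl, 0.95 after heat shock and 0.47 after peroxide. It was below 0 on 4 of the 7 arrays and lowest in nitrogen starvation. GUA1, the GMP synthetase, fell by 1.20 (SE 0.169, adjusted p = 4.60e-04) and ran from −1.82 in nitrogen starvation to −0.36 with rapamycin. The branch median was −2.00 in nitrogen starvation and −1.30 in amino acid starvation, the 2 arrays on which the AMP branch was high. The 3 IMP dehydrogenase genes are close in sequence, so signal may be shared among their probes.

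Pyrimidine synthesis held genes that fell, genes that rose and 1 that followed the purine genes. URA2, which carries out the first 2 steps of the pathway, was at 1.15 in nitrogen and 1.51 in amino acid starvation, and at −0.52 with rapamycin, −1.40 on 0.1% glucose, −2.23 with KCl, −1.35 after heat shock and −0.60 after peroxide. Only the 2 starvations for nitrogen compounds were above 0, and its mean of −0.49 (SE 0.424, adjusted p = 0.357) did not pass. URA4, dihydroorotase, had no value at heat shock and lay between −0.56 and −0.17 on the other 6. URA1, dihydroorotate dehydrogenase, fell by 1.92 (SE 0.253, limma adjusted p = 3.27e-04), with −2.89 in nitrogen starvation and −0.74 in peroxide as its extremes. URA6, the kinase that makes UDP, fell by 0.89 (SE 0.229, limma adjusted p = 9.42e-03).

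URA10 and URA8 were the only genes of the 37 tested that rose, and each is the isozyme of a gene that fell. URA10, an orotate phosphoribosyltransferase, was at 1.19 under rapamycin, 1.43 without nitrogen, 1.41 without amino acids, 2.22 on 0.1% glucose, 2.13 with KCl, 0.97 after heat shock and 1.63 after peroxide, a mean of 1.57 (SE 0.175, limma adjusted p = 1.53e-04). URA5, the major form of that enzyme, fell by 1.05 (SE 0.145, limma adjusted p = 4.16e-04). URA8, the second CTP synthase, rose by 0.76 (SE 0.142, limma adjusted p = 1.78e-03), above 0 on 7 of 7 arrays, while URA7 fell. Over the 14 treatment arrays URA10 was above URA5 on 14 by 1.70 to 4.04, and URA8 was above URA7 on 14 by 2.13 to 7.09. ADE17 was above ADE16 on 5 of 14, with differences of −1.27 to 5.18. IMD2 was above IMD4 on 14 of 14, by 0.57 to 3.44. These differences are between ratios and say nothing of which isozyme has more RNA.

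**Figure D4:**
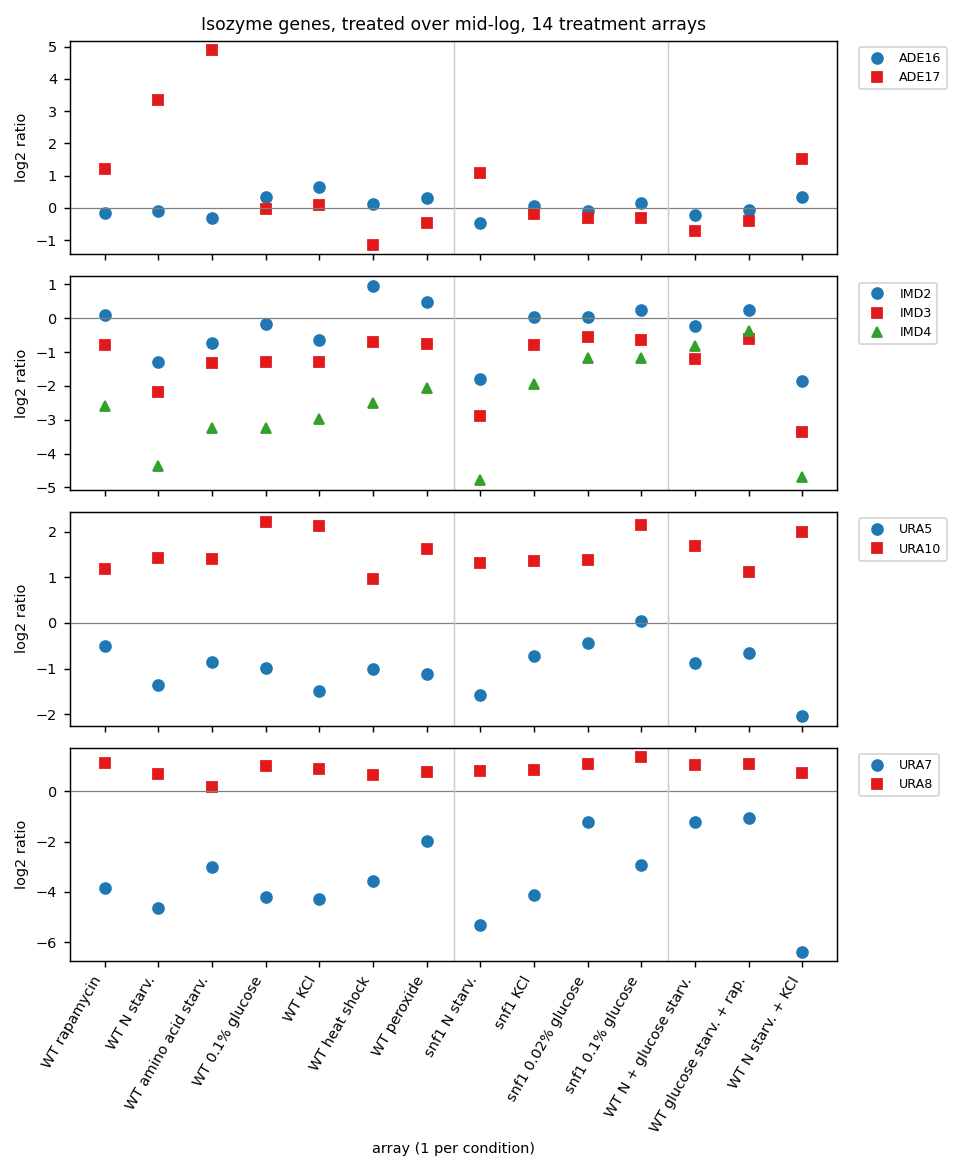
Log2 ratios (vertical axis) of isozyme genes on the 14 treatment arrays, with grey lines between wild-type single treatments, snf1 treatments and combined treatments. URA10 and URA8 lie above 0 throughout, URA7 lies between −6.38 and −1.06, and ADE17 leaves ADE16 upwards mainly in amino acid (4.88) and nitrogen starvation (3.35).

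Among salvage enzymes for purines, 4 of the 6 genes fell, where 28.2% of all genes did. APT1, adenine phosphoribosyltransferase, fell by 1.71 (SE 0.203, limma adjusted p = 1.94e-04), from −2.54 at heat shock to −1.06 with rapamycin. HPT1, the phosphoribosyltransferase for hypoxanthine and guanine, fell by 1.47 (SE 0.338, limma adjusted p = 5.55e-03) but not evenly. It was at −0.11 in nitrogen and −0.02 in amino acid starvation and between −2.63 and −1.32 on the other 5 arrays. ADO1, adenosine kinase, fell by 0.79 (SE 0.233, limma adjusted p = 0.0178) and was at 0.43 with rapamycin. ADK1, adenylate kinase, was at −0.41 (adjusted p = 0.0535), and AMD1, AMP deaminase, at 0.23 (adjusted p = 0.254).

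Pyrimidine salvage was led by FUR1, uracil phosphoribosyltransferase, which turns uracil into UMP. FUR1 was at −0.63 under rapamycin, −4.43 without nitrogen, −3.39 without amino acids, −1.56 on 0.1% glucose, −2.08 with KCl, −0.99 after heat shock and −0.89 after peroxide, a mean of −2.00 (SE 0.439, limma adjusted p = 4.40e-03). The lowest values were again those of nitrogen and amino acid starvation, opposite to the purine synthesis genes on the same arrays. URK1, uridine kinase, fell by 1.17 (SE 0.190, limma adjusted p = 9.01e-04), and FCY1, cytosine deaminase, was at −0.27 (adjusted p = 0.0919).

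The 3 permease genes had patterns of their own. FUR4, the uracil permease, fell by 1.16 (SE 0.314, limma adjusted p = 0.0123), lowest with rapamycin (−2.46), in peroxide (−1.98) and in nitrogen starvation (−1.96), and was at 0.11 in 0.1% glucose. FCY2, the permease for adenine, guanine, hypoxanthine and cytosine, was at 1.89 with rapamycin, 0.18 in nitrogen starvation and 0.54 in amino acid starvation, against −1.66 on 0.1% glucose, −2.18 with KCl, −2.04 after heat shock and −2.17 after peroxide. Its mean was −0.78 (SE 0.501, adjusted p = 0.219) and did not pass. FUI1, the uridine permease, had no value in amino acid starvation and ran from −1.81 in peroxide to 0.23 with rapamycin on the other 6.

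BAS1, the activator of the purine genes, fell by 1.11 (SE 0.265, limma adjusted p = 6.72e-03). It was at −1.19 under rapamycin, −0.27 without nitrogen, 0.21 without amino acids, −1.62 on 0.1% glucose, −1.39 with KCl, −2.15 after heat shock and −1.33 after peroxide. The 2 arrays on which the purine genes were high were the 2 on which the BAS1 ratio was closest to 0.

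The branch medians set these groups beside each other on each array. On the 7 wild-type single treatments the GTP branch median lay between −2.00 and −0.58, PRPP synthesis between −1.81 and −0.71, pyrimidine synthesis between −1.16 and −0.47 and salvage between −1.55 and −0.43, all below 0. The de novo purine median lay between −0.93 and 2.32, below 0 on 4 of the 7. Medians of all genes were between −0.13 and 0.01. A list of 60 ribosome biogenesis genes had medians of −2.97 to −1.58, on each of the 7 arrays lower than that of any of the 5 branches, with salvage in peroxide the nearest (−1.55 against −1.58). In the common response 36 of 37 tested ribosome biogenesis genes fell, as against 18 of 37 nucleotide genes.

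**Figure D5:**
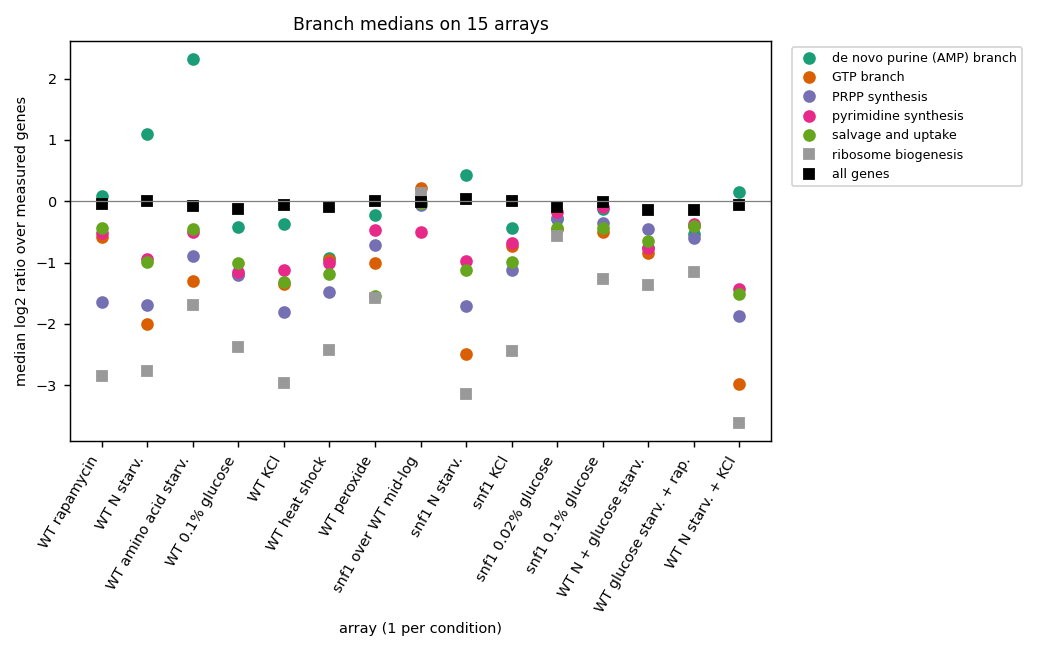
Median log2 ratio (vertical axis) of 5 roles, of ribosome biogenesis genes and of all genes on each of the 15 arrays. The de novo purine branch is the only one with a median above 0.5 on a treatment array, at 1.09 in nitrogen and 2.32 in amino acid starvation, and on the mid-log strain array the medians lie between −0.51 and 0.22.

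Starvation (nitrogen, amino acids and 0.1% glucose) was then set against stress (KCl, heat shock and peroxide), 3 arrays a side. In limma 0 of 37 genes passed, as did 0% of all genes, while 10 of the 37 had an unadjusted p below 0.05, 6 higher and 4 lower in starvation, where 3.98% of all genes were higher and 6.13% lower at that p. The 3 and 3 arrays did not overlap for 4 genes higher in starvation and 2 lower, against 5.89% and 9.69% of all genes. HPT1 had a mean of −0.57 in starvation and −2.42 in stress (difference 1.85, SE 0.464, adjusted p = 0.376), ADE6 had 0.65 and −1.40, FCY2 had −0.31 and −2.13, and PRS2 had 0.26 and −0.24. In the other direction URA6 had −1.55 in starvation and −0.36 in stress, and IMD4 had −3.62 and −2.51.

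The count depended on the 0.1% glucose array. Without it, leaving nitrogen and amino acid starvation against the 3 stresses, 5 genes were higher in starvation, where 0.924% of all genes were. These were ADE17 (difference 4.62, SE 0.571, limma adjusted p = 0.0192), FCY2 (2.49, adjusted p = 0.0192), HPT1 (2.35, adjusted p = 0.0317), ADE1 (2.56, adjusted p = 0.0422) and ADE6 (2.69, adjusted p = 0.0437). They are 3 genes of purine synthesis and the 2 that take up and salvage hypoxanthine.

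Nitrogen starvation and rapamycin, which inhibits a kinase that responds to nitrogen, were not alike for these genes. Rapamycin was at least 2-fold below nitrogen starvation for 6 of the 10 de novo purine genes and at least 2-fold above it for 4 of 4 GTP branch genes, where 5.91% and 7.82% of all genes were. IMD4 was at −2.59 under rapamycin and −4.37 without nitrogen, and GUA1 at −0.36 and −1.82. FUR1 was at −0.63 and −4.43. Genes of PRPP synthesis had medians of −1.64 and −1.69, and 0 of 5 differed by 2-fold. Each condition had 1 array, so these differences have no replicate check. Amino acid starvation was at least 2-fold above nitrogen starvation for 10 of 39 genes and at least 2-fold below it for 0, against 4.39% and 2.41% of all genes.

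Mid-log snf1 cells were close to wild-type cells in these genes. Of the 39 with a value 0 were 2-fold apart in either direction, where 2.14% of all genes were higher and 1.62% lower. The values ran from −0.82 for URA7 to 0.33 for GUA1, with URA1 at −0.64, APT1 at −0.59 and URA10 at −0.56. These are single ratios with no replicate, and their spread over all genes on that array corresponded to an SD of 0.371.

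Responses of the strains were compared over nitrogen starvation, KCl and 0.1% glucose, with treatment as a block. No gene passed in limma, 0 of 37 members and 0% of all genes, and without moderation of the variance the count was also 0. At an unadjusted p below 0.05 there was 1 gene, ADE1, lower in snf1 (difference −0.85, SE 0.284, adjusted p = 0.350), where 7.22% of all genes were lower and 6.23% higher. With nitrogen starvation left out IMD4 was higher in snf1 by 1.56 (adjusted p = 0.0326), against 0.365% of all genes. On that comparison IMD4 was at −1.95 in KCl and −1.16 in 0.1% glucose in snf1 cells and at −2.98 and −3.25 in wild-type cells.

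Within nitrogen starvation the de novo purine genes were lower in snf1 than in wild-type cells, 10 of 10, and 4 of them by at least 2-fold where 3.67% of all genes were. The direction was not particular to this branch. Lower in snf1 were 35 of all 40 members and 39 of 50 ribosome biogenesis genes, against 2502 of all 5580 genes. The median difference was −0.935 over the branch and −0.36 over all members. No member was 2-fold higher there in snf1 cells (0.735% of all genes). ADE17 was at 1.07 in snf1 and 3.35 in wild-type cells, ADE1 at 0.52 and 2.13, ADE13 at 0.03 and 1.58, and ADE4 at −0.86 and 0.31. The difference between the strains is between 2 single arrays and was not tested on its own. Among genes low in wild-type cells, snf1 cells had URA7 at −5.32, FUR1 at −4.90, IMD4 at −4.79 and AAH1 at −4.49, each below its wild-type value, and URA1 at −2.62, above its wild-type value of −2.89. HPT1 was at −0.16, close to its wild-type value of −0.11, and BAS1 at 0.06, above its wild-type value of −0.27.

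In 0.1% glucose 4 de novo purine genes were above and 6 below their wild-type value in snf1 cells, and 0 were 2-fold apart. Over all members 9 of 40 genes were at least 2-fold higher in snf1 than in wild-type cells and 1 lower, against 14.3% and 6.29% of all genes. URA7 was at −2.95 in snf1 and −4.19 in wild-type cells, AAH1 at −2.75 and −3.66, and URA2 at −0.11 and −1.40. The lower one was AMD1, at −0.16 in snf1 and 0.86 in wild-type cells. At 0.02% glucose, given only to snf1 cells, 3 genes were at least 2-fold lower against 7.52% of all genes, with URA7 at −1.23 and IMD4 at −1.18 among them. URA7 and AAH1 (−0.80) were closer to 0 than at 0.1% glucose in the same strain (−2.95 and −2.75). In KCl the snf1 cells had ratios of −4.11 for URA7, −3.54 for AAH1 and −1.80 for HPT1, and 1 of 40 genes, IMD4, was at least 2-fold higher than in wild-type cells (1.36% of all genes) and 0 lower (2.87%).

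The combined treatments with glucose removed lacked the deep falls. In nitrogen and glucose starvation together URA7 was at −1.21, AAH1 at −0.72, IMD4 at −0.81 and FUR1 at −1.27. In glucose starvation with rapamycin they were at −1.06, −0.23, −0.37 and −0.42. Each of these 8 ratios was closer to 0 than the same gene's in nitrogen starvation or in 0.1% glucose alone. Ribosome biogenesis genes also had smaller ratios there, with medians of −1.37 and −1.15. HPT1 was the lowest member on both arrays, at −1.66 and −1.89, and URA10 the highest, at 1.68 and 1.12.

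Removing glucose as well as nitrogen gave lower ratios of the purine synthesis genes than nitrogen starvation alone. All 10 were below their nitrogen starvation value and 9 by at least 2-fold, where 12.4% of all genes were. MTD1 went from 1.25 to −1.60, ADE1 from 2.13 to −1.12, ADE17 from 3.35 to −0.70 and ADE4 from 0.31 to −1.37. ADE12 went from 1.88 to −0.02, and 4 of the 10 were at least 2-fold below mid-log, against 18.1% of all genes. The branch median of −0.77 was below that in 0.1% glucose alone (−0.42), though glucose was removed in one and lowered in the other. Set against nitrogen starvation alone, 8 of 40 members were at least 2-fold higher and 12 lower, against 13.6% and 12.4% of all genes.

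Nitrogen starvation with KCl gave the lowest ratio of all 15 arrays for URA7 (−6.38), AAH1 (−5.53), FUR1 (−5.04), APT1 (−3.43) and IMD3 (−3.35). Here 22 of 40 genes were at least 2-fold lower, against 23% of all genes. In the AMP branch 8 of 10 genes were at least 2-fold below nitrogen starvation alone, where 9.82% of all genes were. ADE17 stood at 1.52 and was the only one of the 10 still 2-fold above mid-log. ADE6, at −1.91, was close to its value in KCl alone (−1.82). HPT1, at −0.57, was closer to its value in nitrogen starvation (−0.11) than in KCl (−2.03), and BAS1, at −1.69, closer to its value in KCl (−1.39) than in nitrogen starvation (−0.27).

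An additive model covered the 11 arrays made of nitrogen starvation, lowered or removed glucose, KCl and rapamycin, in either strain. It gave each treatment a term with an error. There was no strain term, so snf1 and wild-type arrays of a treatment were pooled and strain differences went into the error. So did effects of combined treatments that do not add up, and 0.1%, 0.02% and no glucose were coded alike. URA7, for example, was at −4.64 without nitrogen and −4.19 on 0.1% glucose, but at −1.21 without nitrogen and glucose. A gene not called here can therefore still have responded. For nitrogen starvation 15 of 37 genes were lower and 2 higher, against 18.8% and 14.2% of all genes. The 4 GTP branch genes all fell, with IMD2 at −1.26, IMD3 at −2.04, IMD4 at −2.99 and GUA1 at −1.51 (limma adjusted p of 4.25e-03, 3.11e-03, 0.0236 and 4.25e-03). ADK1 fell by 1.30 (SE 0.162, limma adjusted p = 1.61e-03), and FUR1 was at −3.44, FUR4 at −1.81 and URA6 at −1.49, all called lower. The 2 that rose were ADE17, by 1.53 (SE 0.458, adjusted p = 0.0291), and ADE12, by 0.97 (SE 0.264, adjusted p = 0.0200). Lower calls numbered 7 without the wild-type and 7 without the snf1 nitrogen starvation array, and higher calls 0 without either. With the 7 wild-type arrays alone no member passed in either direction. The share of all genes called in these refits is not given here, so the drops cannot be read as particular to these genes. Without the 2 combined arrays that lacked glucose 8 of 37 genes were higher, with ADE1, ADE3, ADE8, MTD1, URA2 and URA10 added, a share close to the 22% of all genes higher in that fit.

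The glucose term had 7 of 37 genes lower (18.9%) and 2 higher, shares no larger than the 19.1% and 14.5% of all genes. Lower were the purine genes ADE4 (−1.03, SE 0.180, limma adjusted p = 2.98e-03), MTD1 (−1.06), ADE1 (−1.02) and ADE3 (−0.54), and with them HPT1 (−1.24), URK1 (−0.90) and BAS1 (−0.83). The ADE3 call was lost under 12 of 16 other settings and that of ADE1 under 4. Higher were URA10 (1.45, adjusted p = 6.82e-03) and URA8 (0.90, adjusted p = 8.26e-03). URA7 (−1.12, SE 0.927) and AAH1 (−0.94, SE 0.836) did not pass here. Without the 2 combined arrays that lacked glucose 16 genes were lower, where 27.6% of all genes were, URA7 at −2.79 (adjusted p = 5.24e-03) and AAH1 at −2.40 (adjusted p = 8.46e-03). Without the wild-type 0.1% glucose array the count of lower genes was 4, in a refit whose share of all genes is not given here.

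For KCl 18 of 37 genes were lower and 1, URA10, higher, against 16.2% and 15.4% of all genes. ADE6 fell by 1.77 (SE 0.265, limma adjusted p = 2.36e-03), and so did FCY2 (−1.84, adjusted p = 3.75e-03), URA2 (−1.79, adjusted p = 8.46e-03), BAS1 (−1.33, adjusted p = 8.56e-03) and HPT1 (−1.49, adjusted p = 9.63e-03). The lower count dropped to 1, ADE6, without the wild-type KCl array, to 2 without the snf1 KCl array and to 11 without nitrogen starvation with KCl. The higher count dropped to 0 without either of the first 2. Shares of all genes in these refits are not given here either. The rapamycin term, resting on 2 arrays, had 0 calls among 37 genes and the same without moderation of the variance. Of all genes 0.0215% were higher and 0% lower, so the 0 calls do not show a lack of response. At least 2-fold lower were 11 of 40 members with rapamycin alone and 5 with glucose removed as well (11.5% and 15.3% of all genes). At an unadjusted p below 0.05 there were 5 members, where 8.32% of all genes were higher and 12.1% lower. FUR4 was at −1.71 (limma adjusted p = 0.155).

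Other genes of nucleotide metabolism, from a list of 28 of which 20 were tested, had 5 genes that fell and 5 that rose in the common response, shares close to the 28.2% and 22.9% of all genes. Their median coefficient was −0.14. RNR1, the large subunit of ribonucleotide reductase, fell by 1.95 (adjusted p = 1.70e-03), and DCD1, dCMP deaminase, was at −1.64, GUK1, guanylate kinase, at −1.08 and DUT1, dUTPase, at −1.01, all called lower. YNK1, the nucleoside diphosphate kinase, rose by 0.99 and RNR3, the damage-induced form of the reductase subunit, by 0.92. Histidine synthesis, which starts from ATP and PRPP and returns an intermediate to the purine chain, had medians of 1.47 in amino acid starvation, 0.71 in nitrogen starvation, −1.20 at heat shock and 0.54 in peroxide. The de novo purine medians on those arrays were 2.32, 1.09, −0.93 and −0.23. Of the 7 histidine genes 1 rose (HIS3) and 1 fell (HIS6) in the common response.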

How the data were processed

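RNA of treated and of mid-log cells was hybridised to 2-colour microarrays, 1 array per condition. The values deposited by the authors are log ratios of Cy5 over Cy3 with 2 decimals, taken as log2 because the extremes (−7.18 and 9.47) are out of reach on a log10 scale. The sources used here do not give their base, centring, normalisation, background correction or spot filter. Dye order is per the labels, and the peroxide array, with treated cells in Cy3, was turned: it then correlated with the other 6 wild-type arrays at 0.501 to 0.651 across genes. As deposited, array medians over all spots ran from −0.15 to 0.02.

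There were 6256 probes for genes and 61 for controls. A symbol was given for 4075 probes, several for 0 and none for 2181. RefSeq names updated 129, and 4064 symbols matched. Probes of 1 gene were averaged (7 genes). Exact zeros were no value on 6 arrays, and the blanks of the peroxide array stayed blank. Tests used limma 3.58.1 in R 4.3.3 on the 4653 genes measured on all 15 arrays, with Benjamini-Hochberg adjustment over all of them and a threshold of 0.05, and were tested on simulated data. Models were the mean of 7 wild-type arrays, 3 starvations against 3 stresses, strain with treatment as a block (6 arrays), and an additive model with no intercept (11 arrays). Single arrays were described by counts past 2-fold and medians, with no test. The number of arrays limits the precision. Members and lists were chosen with earlier results of these data known. All 40 members could be named, and from each other list at most 6 of the called genes with the largest coefficients. The strain ACY142 was not analysed here, and promoter motifs were not searched. Value columns left unused numbered 0. Genes of near-identical sequence can share signal.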

Additional observations from a re-analysis of the deposited data

How the results depend on the processing

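The count of members lower in the common response stayed between 18 and 19 with each of the 7 arrays left out and the count higher at 2, with ADE4 added when the array of its highest ratio was left out (24.6% of all genes were then lower) and FCY2 likewise (26.2%). In starvation against stress, leaving out 1 array gave 0 to 5 higher and 0 lower. In snf1 against wild type, leaving out 1 treatment gave 0 to 1 higher and 0 lower. For the nitrogen starvation term, leaving out 1 array gave 0 to 7 higher and 7 to 18 lower. The glucose term gave 4 to 8 lower and 2 higher, the KCl term 1 to 20 lower and 0 to 2 higher, and the rapamycin term 0 in both directions. Without moderation of the variance the nitrogen starvation term had 1 higher and the KCl term 8 lower. The following settings were chosen after seeing the data. Without the 2 combined arrays that lacked glucose, 8 genes were higher for nitrogen starvation, where 22% of all genes were. In that fit 16 were lower for glucose (27.6% of all genes) and 2 higher for KCl (18.5%). Its rapamycin term is 1 array, with a spread that comes from the other treatments, and FUR4 was at −2.46. With wild-type arrays only, nitrogen starvation had 0 higher and 0 lower. The causes of these shifts were not tested. Where no share of all genes stands beside a count, its shift cannot be read as particular to the members. At 1.5-fold in place of 2-fold, 59 against 39 gene-array pairs were higher and 292 against 193 lower. Branch medians past 2-fold numbered 27 of 75, and no other setting moved that count by over 1.5 times. Keeping zeros as values, testing every gene with a value on the arrays of a model and centring arrays on their medians moved no count of calls by over 1.5 times. No paired analysis was possible because every condition had 1 array, apart from the treatment block of the strain comparison. Signal over background was not used here, so how far dim spots limit a ratio is unknown.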
